A study of Homo sapiens with 9 samples.

Results

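The regions described here are the stretches of the human genome at which a peak was called in all 8 NKX2-1 antibody libraries of the series. On chromosomes 1 to 22, X and Y the peaks that overlapped or touched were merged, and a merged region was kept if every library had a peak in it. This gave 315 of 1643 merged regions. The peak calls themselves chose these shared regions, so the presence of a peak in each library is not a result, and no test rests on it. The other 1328 regions had a peak in 1 to 7 libraries.

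All cells were RPMI-8402, an established human T-cell acute lymphoblastic leukaemia line. Chromatin was immunoprecipitated with an antibody against NKX2-1, also called TTF1, and sequenced (ChIP-seq). The wild-type (WT) clones were WT10, WT13, WT28 and WT30, and the clones that the design text calls knockout were C12, C15, S04 and S36. For the knockout clones the genotype label names only NKX2-1, and the edited allele is not given in the sources used here. A further library of the line was directed against H3K27ac, histone H3 acetylated at lysine 27; its labels name no clone and it has no replicate. Each clone gave 1 library, so a p-value over libraries measures the spread between clones together with any technical spread. Peak lists record neither read depth nor expression, so the depth is unknown and the state of the targeted gene cannot be read from them.

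NKX2-1 is a homeodomain transcription factor of lung and thyroid that is expressed ectopically in a subset of T-cell leukaemias. Around each centromere the chromosomes carry long arrays of satellite repeats with few protein-coding genes, and their many near-identical copies make short reads hard to place. The nuclear genome also holds scattered copies of mitochondrial DNA, annotated as mitochondrial pseudogenes, which resemble the mitochondrial genome from which they came.

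The sequences of 1 promoter and 1 miRNA are shown because they are the only entries of the RefSeq promoter and miRNA tables (GRCh38.p14) that overlapped a shared region. Both lie in neighbouring regions on chromosome 1 that overlap mitochondrial pseudogenes. The first is the promoter window of the non-coding gene LOC101928626, at chr1:628960-629259 on the minus strand, within the shared region chr1:628954-631532. Capitals mark the bases from the annotated gene start on.
LOC101928626 promoter: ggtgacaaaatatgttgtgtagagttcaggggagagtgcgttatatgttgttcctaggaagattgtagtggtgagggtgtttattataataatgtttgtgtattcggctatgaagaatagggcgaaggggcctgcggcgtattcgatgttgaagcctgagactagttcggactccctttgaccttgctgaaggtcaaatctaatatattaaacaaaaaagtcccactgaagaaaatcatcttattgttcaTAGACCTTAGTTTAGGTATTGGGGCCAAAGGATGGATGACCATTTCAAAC
The second is the hairpin of MIR12136, at chr1:632615-632685 on the minus strand, within the shared region chr1:631601-635056, with its mature miRNA at chr1:632668-632685. Capitals in the mature miRNA mark the seed, bases 2 to 8.
MIR12136 hairpin: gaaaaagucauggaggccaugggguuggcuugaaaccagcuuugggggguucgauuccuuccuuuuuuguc
hsa-miR-12136: gAAAAAGUcauggaggcc
The letters CAAGTG, a core of NKX2 binding motifs, and their reverse complement CACTTG occurred 0 times in the LOC101928626 window. Either occurred in 4035 of all 35116 RefSeq promoter windows of the same length (11.5%).

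Most shared regions lay near the centromeres. The longest stretch of each chromosome without a protein-coding gene served as the measure of the centromere, since no centromere annotation was used. These stretches ran from 3.17 to 22.4 Mb and held the boundary of the chromosome arms on 21 of 24 chromosomes. Of the 315 shared regions, 196 lay inside such a stretch (62.2%, 95% Wilson interval 56.8 to 67.4), and 230 lay inside or within 5 Mb of it (73.0%, 67.9 to 77.6). Among the 1328 regions called in fewer libraries, 516 did so (38.9%, 36.3 to 41.5). Intervals cover counting error only, because neighbouring regions are not independent.

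The share close to a stretch was 26.99% for regions called in 1 library, 52.3% for 4, 68.1% for 6 and 75.6% for 7. Within every library, peaks in shared regions were more often close to a stretch than its other peaks. The mean share was 76.7% ± 0.644 (SD, n = 8) against 55.5% ± 15.2, a difference of 21.2 percentage points (exact sign-flip permutation test, two-sided, p = 0.00781 before and after adjustment over 2 tests, the smallest that 8 libraries can give). The difference ranged from 7.85 points in S04 to 52.1 points in S36, whose other peaks were close in 23.1% of cases. The shared regions are the same in each library, so the 8 differences are not independent. Without S36 the mean difference was 16.8 points.

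**Figure D1:**
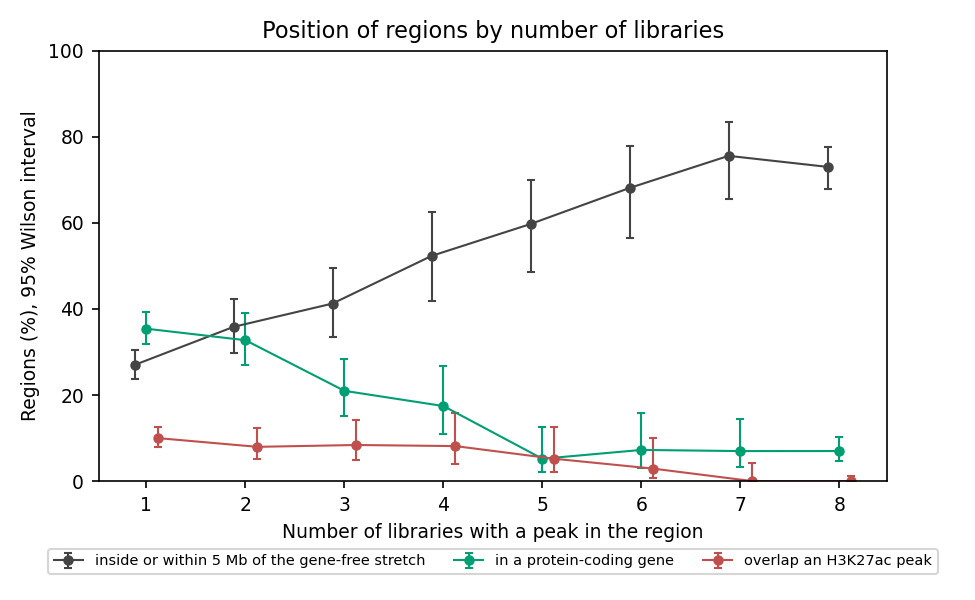
Share of merged regions (y axis, percent) against the number of libraries with a peak in the region (x axis); points are shares, bars are 95% Wilson intervals. The share close to a gene-free stretch is 26.99% for 1 library, 75.6% for 7 and 73.0% for all 8, while the shares in a protein-coding gene and overlapping H3K27ac are 6.98% and 0% for all 8.

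Chromosomes 1 and 10 held 44 shared regions each, chromosome 4 held 37, chromosome 5 held 27 and X held 22, and chromosome 8 held 0. All 15 on chromosome 16 lay inside the stretch, as did 42 of 44 on chromosome 10, 39 of 44 on chromosome 1, 22 of 27 on chromosome 5 and 21 of 22 on X. On chromosome 4 the longest gene-free stretch does not hold the arm boundary. There 0 of 37 shared regions were close to the stretch, while 34 lay within 5 Mb of the arm boundary. The stretches of chromosomes 2 and 21 also miss the boundary. Close to them were 1 of 9 and 13 of 17 regions, and 5 and 17 lay within 5 Mb of the boundary. Measured from arm boundaries alone, 234 shared regions (74.3%) lay within 5 Mb, against 37.9% of the regions called in 1 to 7 libraries. The 2 measures parted on chromosome 1, whose stretch spans 22.4 Mb: 39 of its 44 regions lay inside the stretch, but only 7 within 5 Mb of the boundary. By one measure or the other, 273 of the 315 (86.7%) were close and 42 were not.

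**Figure D2:**
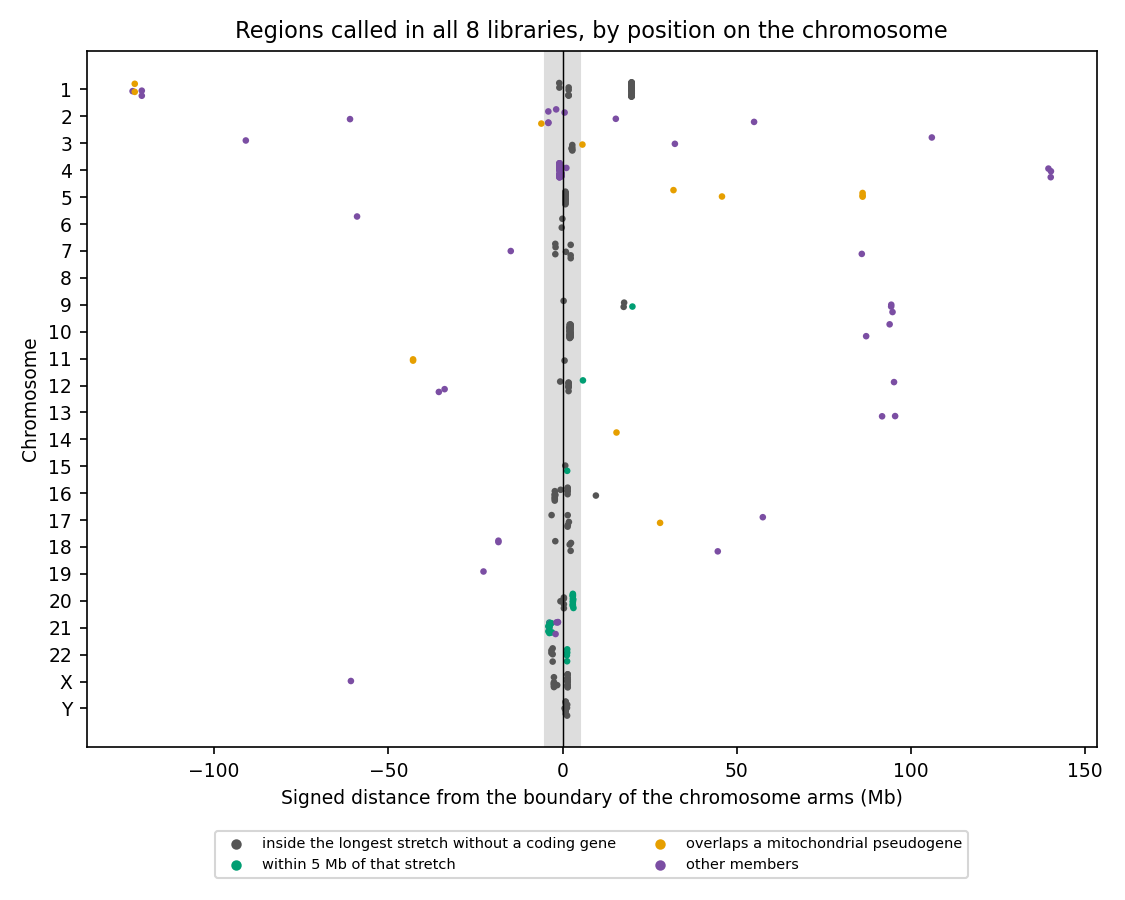
Position of the 315 shared regions by chromosome (y axis) as the signed distance from the boundary of the chromosome arms in Mb (x axis, short arm to the left); each point is a region, jittered vertically, and the grey band spans 5 Mb to either side. Of the regions, 234 fall within 5 Mb of the boundary, and the 13 that overlap a mitochondrial pseudogene lie outside the band.

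The shared regions were tightly clustered. Joining neighbours within 50 kb gave 103 groups, of which 67 were single regions, and the remaining 36 groups held 248 of the 315 (78.7%, 95% Wilson interval 73.9 to 82.9). The median distance to the nearest other shared region was 617 bp. The corresponding distance among the 1328 regions called in 1 to 7 libraries was 43747 bp, and it depends on how many regions there are. It was 11817 bp among the 77 regions called in 5 libraries and 15985.5 bp among the 86 called in 7. The share with a neighbour within 50 kb, each set counted within itself, was 50.3% for 1 to 7 libraries, 58.4% for 5 and 57.0% for 7. Close spacing was thus partly common to regions called in fewer libraries. Within libraries, 85.4% ± 0.661 (SD, n = 8) of peaks in shared regions had another such peak within 50 kb, against 59.0% ± 12.97 of the other peaks, each counted within its own kind. The difference of 26.4 percentage points had the same sign in 8 of 8 libraries (11.02 to 53.3, exact sign-flip permutation test, p = 0.00781). Here too the shared regions are the same in each library, so the 8 differences are not independent. A shared region that held several peaks of a library counts toward this share. Counting any peak of the library in another region, of either kind, gave a difference of 25.4 points, a setting chosen after seeing the data. It changes both limits together, so it does not isolate the effect of several peaks in 1 region.

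The 5 largest clusters held 120 shared regions (38.1%). On chromosome 1, 32 regions lay within chr1:143184518-143275967, a span of 91.4 kb whose nearest protein-coding gene, the histone gene H3-7, was 626 kb away. This cluster lay inside the gene-free stretch but 19784.5 kb from the arm boundary. Another 24 lay within chr4:49096018-49155019, a span of 59.0 kb that ended 845 kb from the arm boundary. It began 33.9 kb from CWH43, a gene of lipid remodelling of membrane-anchored proteins. Both clusters of chromosome 10 lay on the long arm about 2 Mb from the arm boundary, with 23 regions in chr10:41839362-41915545 and 19 in chr10:42066312-42105099, and the zinc finger gene ZNF33B was nearest to each. The cluster chr5:49599457-49667471 held 22 regions in 68.0 kb, 729 kb from EMB, which encodes the cell surface protein embigin. Next in size was chr X 62462608 to 62504788, where 13 regions covered 93.5% of 42.2 kb.

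Enrichment differed between and within the clusters. Each peak carries the authors' fold enrichment over the background of the peak caller, and it is used here only to describe peaks and to rank the 315 regions within each library, with rank 1 the highest and the highest peak taken where a region held several. Mean fold enrichment over the 8 libraries ran from 1.48 to 5.29 in the chromosome 1 cluster, whose best mean rank was 227. It ran from 2.30 to 39.1 in the chromosome 5 cluster and from 6.84 to 22.1 in the chromosome 4 cluster. A region could thus be called in all 8 libraries at an enrichment below 2-fold: chr1:143261810-143262630 had 1.37 in C12, 1.60 in C15, 1.55 in S04, 1.64 in S36, 1.39 in WT10, 1.36 in WT13, 1.40 in WT28 and 1.54 in WT30. This region held ranks between 310 and 315 in every library.

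The shared regions were 204 to 8323 bp wide, with a median of 776 bp and quartiles of 491.5 and 1289.5 bp, and 41 exceeded 2 kb. Together they covered 369 kb, of which 184 kb were covered by peaks of all 8 libraries. The median length of this common core was 344 bp, the median of its share of the region's width was 54.6%, and it exceeded 50% in 181 regions. In 9 regions no base was covered by all 8 libraries although each had a peak there. Of the 179 regions with a single peak in each library, the summits spanned a median of 54 bp, and in 101 they fell within 100 bp of each other. Width had little relation to enrichment (Spearman's rho between width and mean rank 0.0931 across the 315 regions, a description over regions that share libraries).

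The widest regions included several with a small core. The widest, chr21:8227812-8236134, was 8323 bp wide with a core of 466 bp, and chr21:8455393-8463088 was 7696 bp wide with a core of 240 bp. On X, chr X 62476357 to 62483640 was 7284 bp wide and had the largest core of any shared region, 5870 bp. The 10 widest lay on chromosomes 21, X, 5 and 10. Among them, chr5:49656258-49661970 also had the best mean rank of all.

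Few shared regions lay at genes. Only 22 overlapped a protein-coding gene (6.98%, 95% Wilson interval 4.66 to 10.3), against 27.2% of the regions called in 1 to 7 libraries. The share was 35.4% of the regions called in 1 library, 5.19% of the regions called in 5 libraries, 7.25% in 6 and 6.98% in 7, so low shares were not particular to the shared regions. In all, 27 lay in or within 10 kb of one. The median distance to the nearest protein-coding gene was 617 kb, 244 regions were over 100 kb away, and 280 overlapped no annotated gene of any type. An H3K27ac peak overlapped 0 of the 315, where the 95% Wilson interval reaches 1.20% and a limit of 3 counts gives 0.952%. The nearest H3K27ac peak was 2363 bp away, the median distance was 812 kb, and 3 regions had one within 10 kb. H3K27ac marks active promoters and enhancers, and 8.06% of the regions called in 1 to 7 libraries overlapped it, but 0 of the 86 called in 7. The submitters' combined NKX2-1 list and their WT-only list each overlapped 0 of the 315, against 9.49% and 37.3% of the regions called in 1 to 7 libraries. Both also overlapped 0 of the regions called in 5, 6 or 7 libraries. By its name the WT-only list leaves out knockout peaks, so its 0 is not a result.

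The 10 shared regions with the best mean rank fell in 3 settings: gene-free sequence next to centromeres, mitochondrial pseudogenes, and isolated places elsewhere. Best of all was chr5:49656258-49661970, inside the gene-free stretch of chromosome 5, with fold enrichments of 40.5 in C12, 39.4 in C15, 43.9 in S04, 35.8 in S36, 39.6 in WT10, 34.7 in WT13, 42.8 in WT28 and 36.4 in WT30. It ranked between 1 and 5 in every library, and the genotypes overlapped. On chromosome 10, chr10:42098870-42099351 and chr10:41844918-41848102 had mean folds of 24.2 and 23.9. On chromosome 4, chr4:51107172-51107653, 1107 kb from the arm boundary, had a mean of 29.3.

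The isolated places among the best ranked included chr2:32916095-32916558, 30394 bp from LTBP1, whose product binds latent TGF-beta. Its fold enrichments were 32.7 in C12, 28.2 in C15, 30.2 in S04, 28.7 in S36, 28.2 in WT10, 22.9 in WT13, 26.7 in WT28 and 27.7 in WT30. These values overlapped between genotypes. Within KIF5C, which encodes a kinesin heavy chain of neurons, chr2:148881624-148881994 had a mean of 24.1. The region chr6:834069-834643, 140929 bp from the exocyst gene EXOC2, had 38.4 in C12, 28.6 in C15, 37.8 in S04 and 41.2 in S36, against 20.5 in WT10, 19.5 in WT13, 21.2 in WT28 and 21.3 in WT30. Every knockout library was above every WT library there, and the mean rank was 5.75 against 18.4 (exact permutation p = 0.0286, the smallest possible, adjusted p = 0.127). Without any 1 of the 4 WT libraries the exact permutation p was 0.0571. The ranks of the genotypes stayed apart in each case, and groups of unequal size can raise this p by themselves.

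Mitochondrial pseudogenes were overlapped by 13 shared regions (4.13%, 95% Wilson interval 2.43 to 6.93) by 10 of the 1328 other regions (0.753%), and by 4 of the 86 regions called in 7 libraries (4.65%), a share near that of the shared regions. This class, like the ribosomal DNA and chromosome start classes, was chosen after the values were seen. Its median mean fold was 16.4, against 8.35 over all 315. Of the 13, 4 overlap MTRNR2L genes, nuclear copies of the large mitochondrial rRNA gene with humanin-like reading frames, and 3 of these 4 were among the 10 best ranked shared regions.

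At MTRNR2L8 (chr11:10508665-10510138), 1085 bp from the AMP deaminase gene AMPD3, the folds were 46.0, 49.3, 23.04 and 44.1 in C12, C15, S04 and S36 and 44.1, 29.2, 40.9 and 35.6 in WT10, WT13, WT28 and WT30. S04 was the lowest of all 8, and the genotypes overlapped. A smaller region of the same gene, chr11:10507747-10508108, ranked higher in WT (mean rank 51.5 against 100.5 in knockout, exact permutation p = 0.0286, adjusted p = 0.127). That p was lost without S04 (0.0857), without any 1 WT library (0.0857 to 0.143) and when ranked by −log10 q (0.600, exact permutation tests). With a library left out the ranks of the genotypes still did not overlap, and groups of unequal size alone can raise p.

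At 4 other mitochondrial pseudogene regions the knockout libraries ranked higher, while over all 13 the mean rank was higher in knockout at 7. At MTRNR2L12 (chr3:96617143-96618154) the folds were 45.8 in C12, 48.3 in C15, 24.1 in S04 and 41.9 in S36, against 21.9 in WT10, 15.2 in WT13, 21.5 in WT28 and 20.1 in WT30. The region of MIR12136, chr1:631601-635056, had 26.3, 26.3, 16.5 and 22.7 in C12, C15, S04 and S36, and 11.1, 7.15, 11.04 and 9.86 in WT10, WT13, WT28 and WT30. The folds of the genotypes did not overlap at either place. Ranked by −log10 q, the difference at MTRNR2L12 fell from −13.75 to −5.25 ranks (exact permutation p = 0.486), and its p was 0.0571 without any 1 library other than S04. At MIR12136 it fell from −92 to −1.5 ranks with the exact permutation p still at 0.0286. Folds did not overlap either at chr2:87824751-87825349, within the RANBP2-like gene RGPD2, and at chr5:134923637-134924758, within PCBD2, a pterin dehydratase gene. Both had an exact permutation p of 0.0857 when ranked by −log10 q, and of 0.0571 or more without C12, C15 or S36, the first also without S04. With any 1 library left out the ranks stayed apart at MTRNR2L12, at RGPD2 and at this region of PCBD2, so p rose there without overlap. Each of these 4 had an exact permutation p of 0.0286 and an adjusted p of 0.127, with mean ranks of 5.25 to 23.8 in knockout and 19 to 115.8 in WT. In all, 5 of the 13 reached an exact permutation p of 0.0286, 4 higher in knockout and 1 higher in WT. That is 38.5% of a class chosen after the values were seen, beside 22.5% of all 315 shared regions.

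Within each genotype, the same libraries were low at most of the 13 regions. By rank, S04 was the lowest of the 4 knockout libraries at 13 of 13, and WT13 was alone the lowest of the 4 WT libraries at 9 of 13 and WT30 at 3, with a tie at the remaining 1. Their median ranks at the 13 were 66 in S04 against 17 to 25 in the other knockout libraries, and 96 in WT13 against 40.5 to 51 in the other WT libraries. Low ranks of these libraries were not confined to the 13. At PDZRN4 (chr12:41363502-41363859), with no annotated mitochondrial pseudogene, S04 ranked 144 against 27 to 36 in the other knockout libraries. WT13 ranked 104.5 there, against 39 to 50 in the other WT libraries. Near ROCK1 (chr18:20939156-20939530), S04 instead ranked highest of the knockout libraries (38 against 64 to 68). How often either occurred over all 315 regions was not counted. Peaks on the mitochondrial genome itself numbered 4 in C12, 3 in C15, 2 in S04 and 10 in S36, and 9 in WT10, 0 in WT13, 8 in WT28 and 5 in WT30, at 1.76-fold or less. S04 and WT13 had the fewest such peaks of their genotypes. In WT the order of these counts matched that of the median ranks (40.5 in WT10, 49 in WT28, 51 in WT30 and 96 in WT13). In knockout it did not, since S36 had the most peaks and a median rank of 25, against 20 in C12 and 17 in C15. The part that mitochondrial reads played in the enrichment of these regions was not tested.

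**Figure D3:**
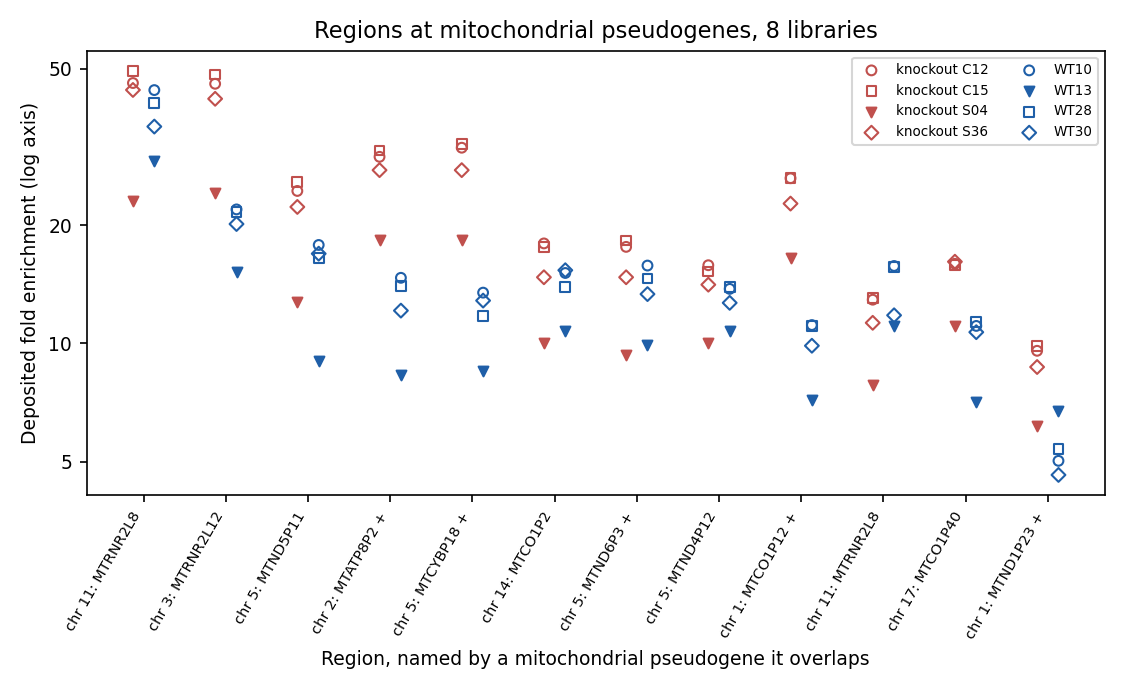
Deposited fold enrichment (y axis, log scale) at 12 of the 13 shared regions that overlap a mitochondrial pseudogene (x axis, named by chromosome and pseudogene), 1 point per library; filled triangles mark S04 and WT13. S04 is the lowest knockout library at 12 of the 12 regions plotted and WT13 has the lowest fold of the WT libraries at 11 of 12. WT13 also had the lowest median fold of the 8 libraries over all 315 shared regions, 7.66.

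Smaller classes lay at ribosomal DNA and chromosome ends. Regions overlapping ribosomal RNA genes, the templates of the ribosome's RNA, were chr21:8213894-8214443 (RNA45SN2) and chr21:8395471-8396246 (RNA45SN3), with low mean folds of 4.17 and 4.41. Regions within 15 kb of a chromosome's first base were chr1:9939-10441, chr3:10179-10679 and chr12:10030-10409, next to the telomeres. Their mean folds were 8.08, 6.98 and 7.66. Ribosomal RNA genes were overlapped by 0.635% of the shared regions, against 2.71% of the regions called in 1 to 7 libraries. These shares count overlap with the annotated genes only. The RNA45SN2 and RNA45SN3 regions lay in clusters of 5 shared regions (chr21:8202711-8236134) and 4 (chr21:8395471-8463088), which also held the widest and the next widest shared region. For chromosome starts the shares were 0.952% and 0.301%. No member of these classes reached the smallest exact permutation p in rank between genotypes, beside 22.5% of all 315 shared regions. The classes are too small for this to set them apart. The region at the start of chromosome 12 was the one nearest to an H3K27ac peak.

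Shared regions in protein-coding genes were usually narrow, with a median width of 561 bp. Mitochondrial pseudogenes accounted for 7 of the 22, including 3 in PCBD2, 1 in KIAA0825 and 1 in AKAP6, an anchoring protein of protein kinase A. In the other genes, enrichment at the knockout libraries was above WT at EHMT1, which encodes a histone H3 lysine methyltransferase. Its region chr9:137715948-137716658 had 17.98, 15.1, 22.5 and 24.4 in C12, C15, S04 and S36, and 10.1, 7.66, 8.04 and 9.67 in WT10, WT13, WT28 and WT30. In SENP5, a SUMO protease gene, chr3:196898659-196899017 had 10.9, 10.2, 11.7 and 12.3 against 6.74, 5.74, 6.97 and 8.36 in the same order. In EXD3, chr9:137355341-137355880 had 10.2, 10.1, 10.7 and 18.997 against 5.70, 6.53, 5.85 and 5.34. The genotypes did not overlap at these 3 (exact permutation p = 0.0286, adjusted p = 0.127 for each), but at SENP5 the exact permutation p was 0.114 when ranked by −log10 q.

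The same p was reached 7375 bp from ROCK1, a kinase of the cytoskeleton, at chr18:20939156-20939530, with a mean rank of 58.6 in knockout and 108.9 in WT. It was lost without any 1 knockout library (exact permutation p = 0.0571 to 0.0857) and when ranked by −log10 q, where the difference fell from −50.2 to −9 ranks (exact permutation p = 0.714). With a knockout library left out the ranks of the genotypes still did not overlap. Regions in DUX4, a homeobox gene of a subtelomeric repeat (chr4:190176954-190180145), in RIMBP2, a presynaptic scaffold gene (chr12:130646066-130646515), and in PDZRN4 (chr12:41363502-41363859) had mean ranks that differed by 0.375 to 10.5 between genotypes. PDIA5, a disulfide isomerase gene (chr3:123151558-123152250), had 13.6, 7.63, 17.7 and 20.4 in C12, C15, S04 and S36 against 7.72, 6.53, 6.58 and 10.0 in WT10, WT13, WT28 and WT30. C15 fell among the WT values there (exact permutation p = 0.0857). At PROZ, a coagulation gene (chr13:113161789-113162886), and FOXK2, a forkhead factor gene (chr17:82586218-82586577), the exact permutation p was 0.200 and 0.514. Of the 22 regions in genes, 6 reached an exact permutation p of 0.0286 (5 higher in knockout, 1 in WT), a share of 27.3% beside 22.5% of all 315 shared regions.

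Libraries gave between 398 (WT10) and 451 (S04) peaks in shared regions, out of 742 (WT13) to 1144 (WT10) peaks in all. Shared regions held 80 to 96 of each library's 100 peaks of highest enrichment, and the strongest peak outside them reached 13.6-fold in WT13 to 20.8-fold in S36. Asking for a call in every library favours strong peaks, so these counts follow in part from the rule. The share of a library's peaks that lay in shared regions was 52.4% ± 4.49 in knockout and 49.3% ± 10.4 in WT (SD, n = 4 each, two-sided exact permutation p = 0.657). WT10 had the lowest share, 34.8%. Peaks in shared regions covered 277 ± 16.8 kb in knockout and 292 ± 11.4 kb in WT (exact permutation p = 0.229). Without S04 this difference of 15.3 kb became 20.3 kb, with p = 0.0286 (exact permutation test). They numbered 444 ± 10.9 and 421 ± 16.6 (exact permutation p = 0.0857) and had median widths of 442 ± 29.5 and 474 ± 26.02 bp (exact permutation p = 0.171). After adjustment over the 4 tests the p-values were 0.657 for the share and 0.305 for the others.

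The order of the shared regions by enrichment was more alike within a genotype than between genotypes. Spearman's rho across the 315 regions was 0.884 to 0.922 for the 6 pairs of knockout libraries, 0.879 to 0.920 for the 6 pairs of WT libraries and 0.800 to 0.872 for the 16 mixed pairs. The ranges within genotypes did not overlap the range between them. These values are a description over regions that share libraries. Leaving out the regions at mitochondrial pseudogenes gave 0.886 to 0.914, 0.882 to 0.914 and 0.794 to 0.867. Among the 85 shared regions not close to a gene-free stretch, and when regions were ranked by the −log10 q in place of fold enrichment, the ranges overlapped. Whether libraries of a genotype were handled together or called against the same control is not given in the sources used here, so genotype and handling cannot be told apart.

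**Figure D4:**
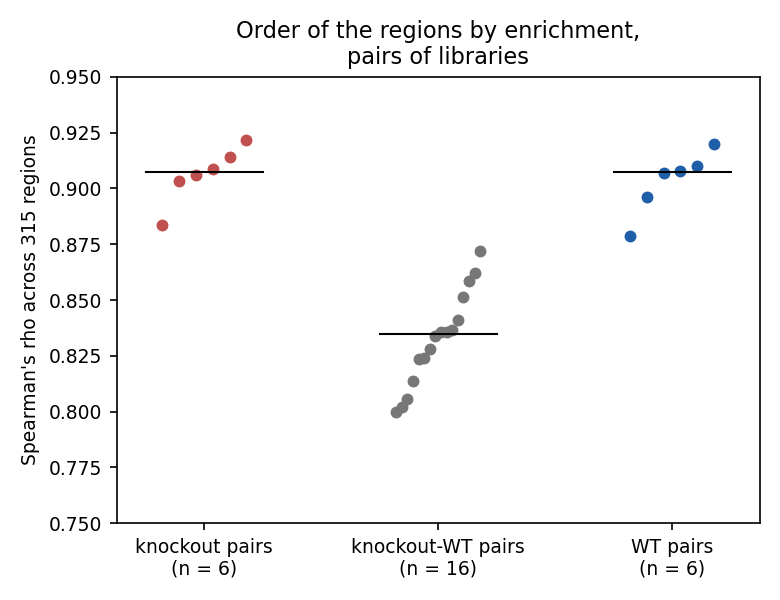
Spearman's rho of the order of the 315 shared regions by enrichment (y axis) for each pair of libraries, grouped by genotype (x axis); each point is a pair and lines are medians. The 12 pairs within a genotype lie between 0.879 and 0.922 and the 16 mixed pairs between 0.800 and 0.872.

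Each shared region was then tested for a difference in rank between the genotypes. At an exact permutation p of 0.0286, the smallest that 4 against 4 libraries can give, 71 of 315 regions differed (22.5%), 36 ranked higher in knockout (11.4%) and 35 higher in WT (11.1%). In all 71 the ranks of the 4 knockout libraries did not overlap those of the 4 WT libraries, which this p requires, so it adds nothing to the count. After Benjamini-Hochberg adjustment 0 regions (0%) passed 0.05, with a smallest adjusted p of 0.127, and 180 regions at the smallest p would have been needed for any to pass. With each library left out in turn, 49 to 54 of the 71 were still at an exact permutation p under 0.05. The ranks of all 71 stayed apart, because leaving out a library cannot make them overlap. The groups are then of unequal size, which alone can raise this p, so its loss does not show dependence on 1 library. With all libraries, the share at the smallest p was 23.5% of the 196 regions inside a gene-free stretch (19 higher in knockout, 27 in WT). It was 21.1% of the 71 regions elsewhere (11 in knockout, 4 in WT). Both shares were close to the 22.5% over all shared regions.

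The difference in rank was greatest at chr6:59764516-59764874, inside the gene-free stretch of chromosome 6, a region singled out after its values were seen. Its folds were 4.00 in C12, 4.22 in C15, 4.61 in S04 and 4.26 in S36, against 11.7 in WT10, 11.4 in WT13, 12.1 in WT28 and 11.3 in WT30. The spread within each genotype was small beside the gap between them, and the summits of the 8 libraries lay within 4 bp. At the other end, also singled out afterwards, chr21:10014713-10015083 had 15.8, 16.8, 10.3 and 15.5 in C12, C15, S04 and S36, and 8.43, 5.09, 7.55 and 6.69 in WT10, WT13, WT28 and WT30. Of the 3 regions with the widest range of ranks over libraries, 2 also ranked higher in WT, chr2:94505349-94506010 with mean ranks of 102.2 in WT and 236.6 in knockout, and chr10:41914472-41915545 with 105.5 and 252.2. The exact permutation p of the first was 0.0571 without WT28, and that of the second 0.0571 without any 1 knockout library. At both, the ranks of the genotypes stayed apart when these libraries were left out. The widest range of all belonged to chr4:49709106-49712064, where C15 had 43.5 and WT28 24.4 WT10 had 13.7, and the other libraries had 3.75 to 6.37. There the extremes did not follow genotype (exact permutation p = 1), and the summits of the libraries spanned 2169 bp.

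**Figure D5:**
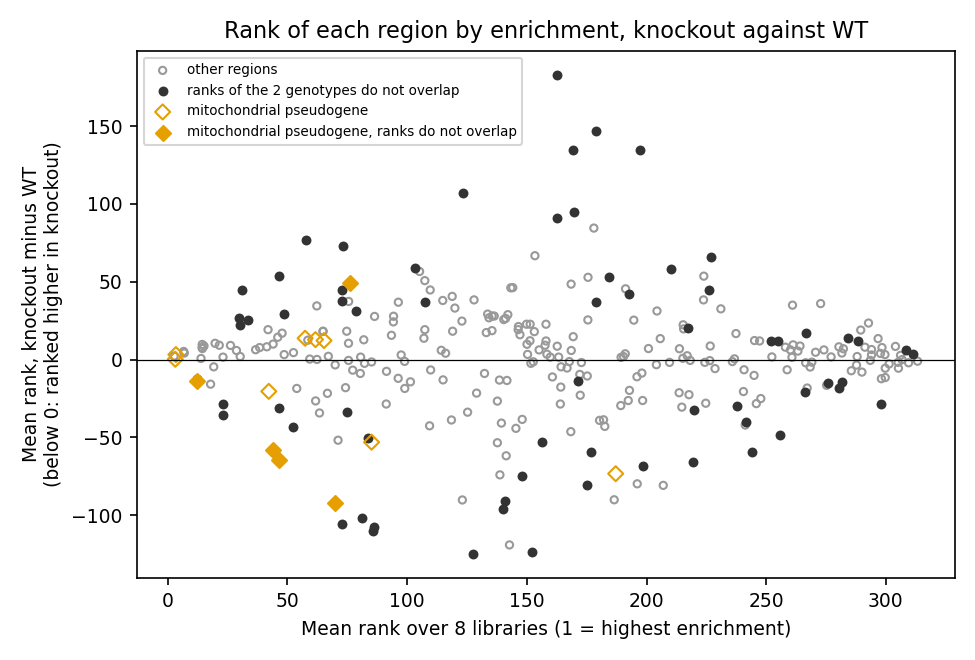
Difference in mean rank between genotypes, knockout minus WT (y axis, below 0 ranked higher in knockout), against mean rank over 8 libraries (x axis, 1 the highest enrichment) for the 315 shared regions. Filled points are the 71 regions whose ranks do not overlap between genotypes; 5 of the 13 diamonds, which mark mitochondrial pseudogenes, are among them.

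Just outside the rule were 86 regions called in 7 libraries. Their median width was 455 bp and their median mean fold 6.54, against 776 bp and 8.35 for the shared regions. The missing library was S36 at 27 of them and WT13 at 25, and between 0 and 9 for each of the others, with 0 for WT10. Best ranked of the 86 was chr Y 4344641 to 4344990, which lacked a call in WT13 and had a mean fold of 13.1 over the 7 libraries. Next came chr6:61574002-61574355 in the RNA-binding protein gene KHDRBS2, which overlapped the mitochondrial pseudogene MTRNR2L9 and lacked a call in WT13. The region chr18:47853135-47853484 in SMAD2, a signal transducer of TGF-beta, overlapped MTCO2P2 and lacked a call in S04. Mean folds of the chromosome 6 and 18 regions were 13.1 and 12.4. After them came chr16:34624964-34625322 (10.4, no call in C12) and chr Y 9141756 to 9142101 (10.2, no call in WT13). The regions on chromosomes 16 and Y overlapped no mitochondrial pseudogene.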

How the data were processed

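ChIP-seq peak lists of 8 NKX2-1 antibody libraries and 1 H3K27ac library were used, with the submitters' combined NKX2-1 list and WT-only list for overlap counts. Per the submitters' processing notes, the tools named are Bowtie2, MACS2, SAMtools, deepTools and FastQC, and the build is hg38. Versions, parameters, the control for peak calling and any removal of repeat regions are not given in the sources used here. For each peak the authors deposited a ratio (fold enrichment at the summit), −log10 values of p (not used) and q, and the position of its summit. The lists hold no read counts, so depth is unknown and limits precision by an unknown amount: an uncalled site is not shown to be unbound. The share of a library's peaks in shared regions, the kilobases covered, the number and median width of peaks, and the rank of each region were compared between 4 knockout and 4 WT libraries by exact permutation over 70 assignments. Positions of peaks were compared within libraries by exact sign-flip tests over 256 assignments. All tests were two-sided, with Benjamini-Hochberg adjustment within each family.

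Coordinates are 1-based. Overlap counted from 1 bp. Gene positions came from the RefSeq table for GRCh38.p14, with 19862 protein-coding genes on these chromosomes, after 718 rows placed on other scaffolds were left out. The table gives no exons, so regions in genes could not be assigned to exons, introns or UTRs. Arm boundaries were written by hand from the cytogenetic band map. The shared regions and the lists and tests were chosen with earlier results of these data known. Named regions are the 10 with the best mean rank, the 10 widest, the 5 largest clusters, up to 20 in or within 10 kb of a protein-coding gene, the 3 with the widest and the 3 with the narrowest range of ranks, and 5 regions called in 7 libraries. Of these, 1 region is not reported here. Other named regions were chosen after their values were seen. Alternatives were other peak thresholds, merging rules, distances, centromere definitions and ranked values, and leaving out each library. Merging and tests were run in Python 3.11.15 with numpy 2.4.6, pandas 2.3.3 and scipy 1.17.1, and were checked on simulated data and against bedtools 2.31.1. The labels name no batch.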

Additional observations from a re-analysis of the deposited data

Results flagged for a closer look

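Within groups of 4 libraries, 106 sets of values were examined for a library far from the rest, 12 were picked out, and chance picks out about 1 in 20. S36 had 428 peaks in shared regions, far below the other knockout libraries (448 to 451). S36 also had the high value among knockout libraries at chr13:113161789-113162886 in PROZ (23.7-fold) and at chr9:137355341-137355880 in EXD3 (18.997-fold). C15 stood far above the other knockout libraries at chr4:49709106-49712064 (43.5-fold).

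S04 was the high knockout library near ROCK1 at chr18:20939156-20939530 (17.2-fold) and in FOXK2 at chr17:82586218-82586577 (10.9-fold). S04 was the low one at chr17:53105854-53106523, which overlaps the mitochondrial pseudogene MTCO1P40 (11.1-fold), and WT13 was the low WT library at the same place (7.09-fold). WT13 was also low at chr5:134925086-134925762 in PCBD2 (9.01-fold) and at chr1:143249588-143250170 (1.42-fold). WT10 was high at chr21:8404205-8408909 (3.59-fold), and WT30 at the start of chromosome 12 (9.01-fold). The causes of these deviations were not tested.

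The 8 libraries together held 41 peaks on the mitochondrial sequence, which the shared regions do not include. There is no control library against which these could be set.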

How the results depend on the processing

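The number of shared regions was 189 with peaks of −log10 q of 10 or more, 198 with peaks of 5-fold or more, 193 with the 500 strongest peaks per library, and 322 (without WT10) to 344 (without S36) with each library left out. The share close to a centromere was 67.6% within 2 Mb, 62.2% inside the stretch, 80.6% with stretches free of genes of any type, and 72.4% to 74.7% with each library left out. The share with a neighbour was 73.7% within 10 kb, 85.7% within 500 kb, 87.6% within 1 Mb, and 78.2% to 79.3% with each library left out. Both within-library differences kept their sign and their side of the threshold under every alternative run.

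Knockout minus WT, the covered length was −20.3 kb without S04 (exact permutation p = 0.0286) and −20.3 to −7.29 kb over the libraries left out. The number of peaks was 12.25 higher in knockout with peaks of −log10 q of 10 or more (exact permutation p = 0.0286), and 15.6 to 28.7 higher with each library left out. The share of peaks changed sign without WT10 (−1.67 percentage points, up to 6.27 without WT13), and the median width with peaks of −log10 q of 10 or more (3.5 bp); neither was past the threshold. Ranked by −log10 q, 42 regions in place of 71 reached an exact permutation p under 0.05, and 35 of them were among the 71. With each library left out 54 to 67 did, 49 to 54 of them among the 71. None passed adjustment in any of these, the smallest adjusted p being 0.134 to 0.167 with a library left out. Over 490 recomputed differences of 49 named regions, 437 kept their side of the threshold (53 of them, at 20 regions, with the other sign and no p under 0.05), 42 lost p under 0.05, 10 gained it, and 1 reversed: chr X 62462608 to 62470110, ranked by the mean of its peaks, had −18.0 (exact permutation p = 0.0286) in place of 14.75. Where a library was left out, ranks of the genotypes that were apart stayed so, and p could be lost through unequal groups alone. The causes were not tested. No paired analysis was possible because the replicate numbers only follow sample order and pair no clones. Unknown depth limits every count of calls.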
